A study of Mus musculus with 16 samples.

Results

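The genes described here encode Golgi α-mannosidases and N-acetylglucosaminyltransferases (GlcNAc-transferases) of the N-glycan pathway, 10 genes of the 37583 listed for each library. They were taken by name, as *Man1a*, *Man1a2*, *Man1c1*, *Man2a1*, *Man2a2*, *Mgat1*, *Mgat2*, *Mgat3*, *Mgat4c* and *Mgat5*, and the rule uses no expression value, although earlier results of these data were known when they were chosen. All 10 had counts in each of the 16 libraries and passed the filter on low counts in every comparison. The study sequenced polyA-selected RNA of brain cortex and of cerebellum, 1 library for each region of each mouse, from 4 mice of wild-type genotype and 4 that carry the A391T (also named A393T) form of *Slc39a8*, which encodes a metal ion importer of the plasma membrane. All mice were C57BL/6J and received no treatment that the labels name. The paper describes its wild-type mice as male and 12 weeks old, with cortex dissected from the frontal part. It gives no age or sex for the A391T mice. The labels do not say whether the A391T mice carry 1 or 2 copies of the allele. Mice are called 1 to 4 within a genotype, in the order of the animal numbers in the sample titles, and the values of a group are given in that order.

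An N-glycan reaches the Golgi as a high-mannose structure. Class I mannosidases (IA, IB and IC, from *Man1a*, *Man1a2* and *Man1c1*) trim its mannoses, and GlcNAc-transferase I (*Mgat1*) then adds the first antennal GlcNAc, which opens the way to hybrid glycans. Class II mannosidases (II and IIx, from *Man2a1* and *Man2a2*) remove further mannoses, and GlcNAc-transferase II (*Mgat2*) starts the other antenna of a complex glycan. GlcNAc-transferase V (*Mgat5*) adds a further branch, GlcNAc-transferase III (*Mgat3*) adds the bisecting GlcNAc that blocks several later steps, and *Mgat4c* belongs by sequence to the GlcNAc-transferase IV family. Brain is known for a high content of high-mannose and bisected N-glycans.

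RefSeq promoter windows on GRCm38.p6, from 250 bases before to 50 bases after the annotated start, were found for 7 of the 10 genes, and those of *Man1a2*, *Man2a2* and *Mgat3* were not analysed here. The windows of *Man1a*, *Man2a1* and *Man1c1* are shown because these are genes of trimming steps whose regional differences, given further on, are among the largest and point in opposite directions. They are written 5′ to 3′ on the strand of the gene, and capitals mark each GC box, the letters GGGCGG or, on the other strand, CCGCCC. The window of *Man1a* lies at chr10:54075688-54075987 on the minus strand, that of *Man2a1* at chr17:64601399-64601698 on the plus strand and that of *Man1c1* at chr4:134704241-134704540 on the minus strand.
Man1a: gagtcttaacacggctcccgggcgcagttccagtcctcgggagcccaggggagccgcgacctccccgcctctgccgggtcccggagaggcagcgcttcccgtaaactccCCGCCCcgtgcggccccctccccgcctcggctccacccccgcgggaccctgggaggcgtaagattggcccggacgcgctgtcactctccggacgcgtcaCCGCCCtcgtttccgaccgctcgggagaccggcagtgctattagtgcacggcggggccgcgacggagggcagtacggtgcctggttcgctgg
Man2a1: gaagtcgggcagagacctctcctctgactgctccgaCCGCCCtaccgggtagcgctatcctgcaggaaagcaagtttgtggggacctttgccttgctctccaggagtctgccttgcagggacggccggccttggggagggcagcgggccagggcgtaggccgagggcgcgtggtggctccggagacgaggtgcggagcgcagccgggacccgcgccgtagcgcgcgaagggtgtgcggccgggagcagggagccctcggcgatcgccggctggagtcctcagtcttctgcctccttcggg
Man1c1: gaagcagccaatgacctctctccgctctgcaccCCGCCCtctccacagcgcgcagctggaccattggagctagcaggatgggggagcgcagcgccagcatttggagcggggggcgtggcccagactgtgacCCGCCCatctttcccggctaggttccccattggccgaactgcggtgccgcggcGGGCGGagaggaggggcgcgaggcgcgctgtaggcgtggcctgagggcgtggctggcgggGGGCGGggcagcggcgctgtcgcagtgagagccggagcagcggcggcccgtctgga
The window of *Man1a* held 2 GC boxes, that of *Man2a1* 1 and that of *Man1c1* 4, and 35.7% of the 32851 RefSeq windows of the same 300 bases held at least 1. No TATAAA (found in 13.6% of all windows, either strand) was present in these 3 windows. The E-box CAGCTG (in 16.3% of all windows) occurred once in the window of *Man1c1* and in neither of the other two. GC content was 72.7% for *Man1a*, 70.0% for *Man2a1* and 72.3% for *Man1c1*, against a median of 52.7% over all windows. Windows of the other members were not all of this kind: the 4 windows of *Mgat4c*, whose regional difference was the largest, had 27.7% to 49.0% GC, and that of *Mgat5* had 58.0%. Some were alike: the window of *Mgat2*, which gave no regional call, had 69.0% GC and 3 GC boxes. The 3 windows of *Mgat1* had 70.7%, 51.3% and 62.7% GC, with 3, 0 and 3 GC boxes.

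In these bulk samples fewer cells of a type and less RNA per cell cannot be told apart. Total counts on genes ranged from 20813432 to 30497206 per library. The tissue labels fit the markers: 5 granule cell genes summed to 17.3 to 31.9 TPM (counts per base of gene length, scaled to the same total in every library) in cortex and to 1485 to 1905 TPM in cerebellum, and 5 cortical projection neuron genes summed to 2275 to 2848 TPM in cortex and to 742 to 994 TPM in cerebellum. Other cell types also moved with region: sums of 5 genes each were 415 to 548 TPM in cortex and 4692 to 5423 TPM in cerebellum for Purkinje cells, 438 to 530 and 1027 to 1331 TPM for astrocytes and Bergmann glia, and, in wild-type mice, 428 to 469.7 and 148 to 158 TPM for microglia. Their part in the regional differences of the 10 genes was not tested. In cortex, 5 striatal neuron genes summed to 566 to 777 TPM in wild-type and 249 to 865 TPM in A391T mice. Choroid plexus genes varied most between cerebellum libraries, from 42.9 to 8081 TPM for 5 genes. A pair of libraries stood apart from the rest of their group. The cortex library of wild-type mouse 4 lay at a median distance of 0.21 on the log2 scale from the mean of the other cortex libraries of its genotype over 16589 genes, and the cerebellum library of A391T mouse 1 at 0.31, against 0.08 to 0.16 for the other 14 libraries. Wild-type mouse 4 cortex also had the lowest projection neuron sum, 2275 TPM against 2700 to 2848 in the other cortex libraries, and A391T mouse 1 cerebellum had the highest interneuron sum, 4906 TPM against 1961 to 2333 in the other cerebellum libraries. Most of that interneuron sum was 1 gene, *Pvalb*, at 4418 TPM, against 1545 to 1825 TPM in wild-type cerebellum. Without this pair of libraries the same 8 genes had an adjusted p-value under 0.05 between regions in each genotype, and values without them are given beside several results that they moved. For 8 of the 16 libraries, from 4 mice, the count files and the RPKM table give different names, such that wild-type mice 1 and 2 exchange genotype with A391T mice 3 and 4. The names of the count files are used here, and the files do not show which are right. Region is the same under both. *Slc39a8* had 75 to 171 counts per library, and its level did not check the genotype labels because the variant is a change in the protein sequence.

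Levels spanned about 2 orders of magnitude within each group. *Mgat3* was highest and *Man2a2* second in all 4 groups, and *Mgat4c* was lowest. In wild-type cortex the mean was 174 ± 16.2 TPM for *Mgat3* (SD, n = 4 mice, as for all means here) and 129 ± 36.0 TPM for *Man2a2*, and these 2 overlapped, although *Mgat3* exceeded *Man2a2* in each of the 4 libraries. *Mgat1* followed at 57.4 ± 2.40 TPM, then *Man1a2* at 44.3 ± 4.55, *Man1c1* at 41.5 ± 4.29 and *Mgat5* at 39.9 ± 15.2 TPM, 3 neighbours whose ranges overlapped. Without mouse 4 the mean was 46.5 ± 9.20 TPM for *Mgat5*, then above *Man1a2* (46.0) and *Man1c1* (43.5), and 145 ± 21.1 TPM for *Man2a2* (n = 3 mice). *Mgat2* at 23.3 ± 1.15 TPM was separated from *Man1a* at 16.4 ± 1.77 TPM, while *Man1a* and *Man2a1* (16.2 ± 1.20 TPM) could not be ordered. *Mgat4c* had 3.08 ± 0.304 TPM. In wild-type cerebellum *Man1c1* moved up to the third place with 82.1 ± 9.70 TPM, above *Mgat5* (52.3 ± 7.75 TPM) in all 4 libraries with no overlap. *Mgat5* and *Mgat1* (46.7 ± 1.01 TPM) overlapped there, and *Man1a2* (26.9 ± 2.23 TPM), *Mgat2* (23.1 ± 1.09 TPM), *Man2a1* (9.52 ± 0.528 TPM), *Man1a* (8.19 ± 0.616 TPM) and *Mgat4c* (1.22 ± 0.262 TPM) followed, each without overlap with the next. The order between genes depends on the gene length. The RPKM table gives 13145 bases for *Man1a2* and 5028 for *Mgat2*, whereas merged exons of the NCBIM37 annotation cover 8184 and 2615 bases, and with the latter the wild-type cortex means were 69.2 and 43.6 TPM. Fold changes and tests of 1 gene between regions or genotypes do not use the length. Ranges and overlaps of 1 gene in TPM do depend on lengths, through the total over all genes.

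**Figure D1:**
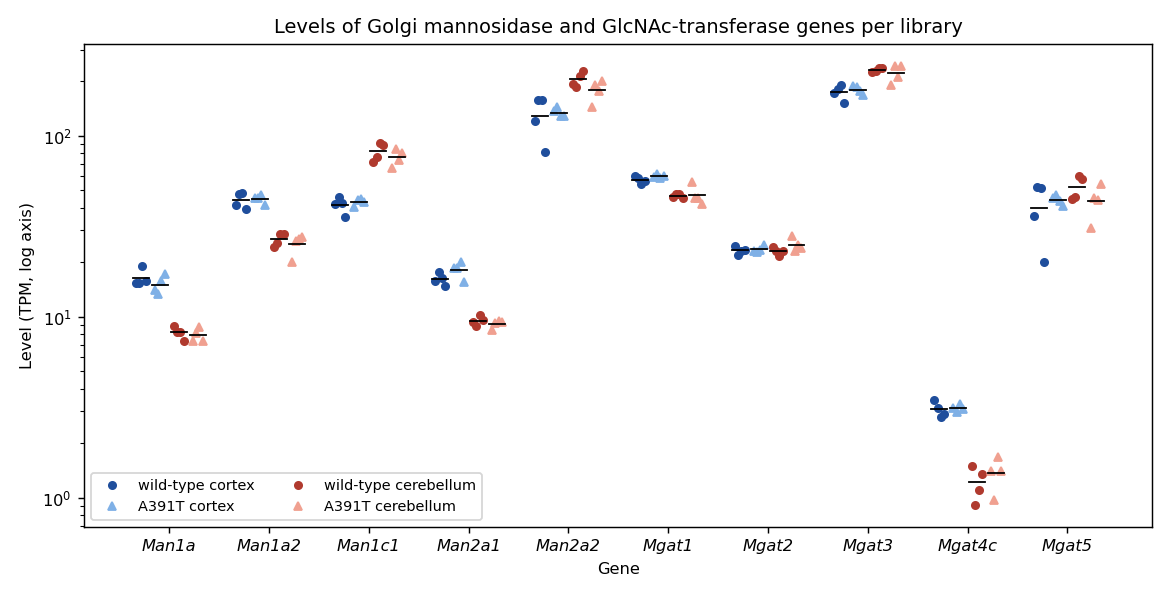
Level of each of the 10 genes in TPM (log axis) in the 16 libraries, with 1 point per library, 4 per group, and a bar at the group mean. Blue marks cortex and red cerebellum, circles wild type and triangles A391T. *Mgat3* and *Man2a2* lie at the top in every group, *Mgat4c* at the bottom, and the red and blue points separate completely for *Man1a*, *Man1a2*, *Man1c1*, *Man2a1* and *Mgat4c*, and for *Mgat3* by under 1 TPM on this scale, which is without the TMM factors.

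The first comparison asks how the 2 regions of wild-type mice differ. Of the 10 genes, 8 differed between cerebellum and cortex at an adjusted p-value under 0.05 in the quasi-likelihood test of edgeR (Benjamini-Hochberg over all genes), against 67.8% of all 16040 genes tested. *Man1c1*, *Man2a2* and *Mgat3* were higher in cerebellum, and *Man1a*, *Man1a2*, *Man2a1*, *Mgat1* and *Mgat4c* were lower. The split is 3 of 10 higher (34.7% of all genes) and 5 of 10 lower (33.1% of all genes). The further requirement of a 2-fold change was met by 2 of 10, *Man1a* and *Mgat4c*, both lower in cerebellum, against 24.7% of all genes (14.2% lower and 10.5% higher). The shares are near those of all genes, so the members were not set apart by how often they differed. Their median log2 fold change, cerebellum over cortex, was -0.31, against 0.02 over all genes. In A391T mice the same 8 genes had an adjusted p-value under 0.05 in the same directions, against 62.8% of 16005 genes tested (31.6% higher and 31.3% lower). There 3 of 10 also passed the 2-fold requirement, against 24.7% of all genes, and these were *Man1a*, *Man2a1* and *Mgat4c*, all lower in cerebellum (9.8% of all genes passed as higher and 14.9% as lower). Fold changes are on the TMM scale, in which most genes are taken not to differ. They are of counts scaled by library totals and TMM factors and, unlike TPM, use no gene length. Under library totals alone the median log2 fold change of all genes was 0.14 in wild-type and 0.16 in A391T mice, so cerebellum values are higher by about that much without the TMM factors. The split of all genes in A391T mice was then 6507 higher and 4175 lower, against 5051 and 5005 on the TMM scale. The directions of the 8 genes were the same on both scales, but under library totals 1 of the 3 genes past both criteria in A391T mice was left, *Mgat4c*, with *Man1a* at -0.90 and *Man2a1* at -0.97.

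Within the class I mannosidases, *Man1c1* opposed *Man1a* and *Man1a2*. *Man1a* (ENSMUSG00000003746, chromosome 10, 53624594 to 53795602, minus strand, 14 exons; here and below NCBIM37 with overlapping exons merged) had 15.4, 15.4, 19.0 and 15.8 TPM in wild-type cortex and 8.89, 8.27, 8.21 and 7.39 TPM in wild-type cerebellum. A391T mice had 14.0, 13.3, 15.8 and 17.2 TPM in cortex and 7.36, 8.16, 8.73 and 7.36 TPM in cerebellum. Every cortex library lay above every cerebellum library. Among genes with at least 10 counts summed over the libraries compared, the regions did not overlap in TPM for 57.0% of 20105 in wild-type mice. The share was 53.6% of 20126 in A391T mice and 38.0% of 21591 in all 16 libraries. This base is wider than the genes tested and holds genes of very low counts. In edgeR the regional log2 fold change came to -1.15 (standard error, SE, 0.09, adjusted p = 4.3e-07, edgeR) in wild-type mice and -1.04 (SE 0.10, adjusted p = 9.1e-06) in A391T mice. The A391T value lies close to the 2-fold limit and fell under it, at -0.96 and -0.99, without the cortex or the cerebellum library of A391T mouse 4.

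*Man1a2* (ENSMUSG00000008763, chromosome 3, 100366130 to 100489426, minus strand, 14 exons) had 41.7, 47.6, 48.6 and 39.2 TPM in wild-type cortex and 24.5, 25.6, 28.8 and 28.8 TPM in wild-type cerebellum. In A391T mice it had 45.5, 45.4, 46.9 and 41.4 TPM in cortex and 20.1, 26.1, 27.0 and 27.7 TPM in cerebellum. Cerebellum was lower in 8 of 8 mice and the regions did not overlap. On the log2 scale the regional change was -0.87 (SE 0.08, adjusted p = 1.4e-06, edgeR) in wild-type and -0.94 (SE 0.08, adjusted p = 3.2e-06) in A391T mice, short of a 2-fold change in both. Which of *Man1a* and *Man1a2* passed 2-fold in A391T mice depends on the library names. Under those of the RPKM table *Man1a2* had -1.01 and *Man1a* -0.93, and with the mice whose names match they had -1.04 and -0.88.

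*Man1c1* (ENSMUSG00000037306, chromosome 4, 134117605 to 134260205, minus strand, 13 exons) moved the other way. Wild-type cortex had 42.2, 45.7, 42.5 and 35.5 TPM and wild-type cerebellum 71.3, 76.8, 91.7 and 88.8 TPM. A391T cortex had 40.4, 44.2, 45.0 and 42.9 TPM and A391T cerebellum 66.8, 84.1, 73.9 and 80.0 TPM. The lowest cerebellum library exceeded the highest cortex library, and cerebellum was higher in 8 of 8 mice. Regional log2 fold changes were 0.83 (SE 0.09, adjusted p = 8.6e-06, edgeR) in wild-type and 0.72 (SE 0.07, adjusted p = 7.3e-06) in A391T mice.

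The make-up of the class I family in RNA therefore shifted between regions. *Man1c1* made up 40.6% ± 1.99 of the summed TPM of the 3 genes in wild-type cortex and 70.0% ± 1.47 in wild-type cerebellum. In A391T mice it made up 41.9% ± 1.07 and 69.7% ± 1.68. No cortex library reached above 43.0% and no cerebellum library fell below 67.4%. *Man1a2* went from 43.3% ± 0.944 to 23.0% ± 0.424 and *Man1a* from 16.1% ± 1.57 to 7.07% ± 1.16 in wild-type mice. The summed level was 102 ± 9.12 TPM in wild-type cortex and 117 ± 11.5 TPM in wild-type cerebellum, and the ranges of 90.5 to 110 and 105 to 129 TPM overlapped. The direction of the sum depends on the scale, since in CPM (counts scaled by the library total, with no gene length) it was 266 ± 14.2 in wild-type cortex and 240 ± 16.7 in wild-type cerebellum. In CPM the share of *Man1c1* was 24.3% ± 1.44 and 52.0% ± 1.56. With merged exons as gene length, the share of *Man1c1* was 36.2% in wild-type cortex and 65.6% in wild-type cerebellum. These shares are descriptions of RNA within a library, without a test.

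**Figure D2:**
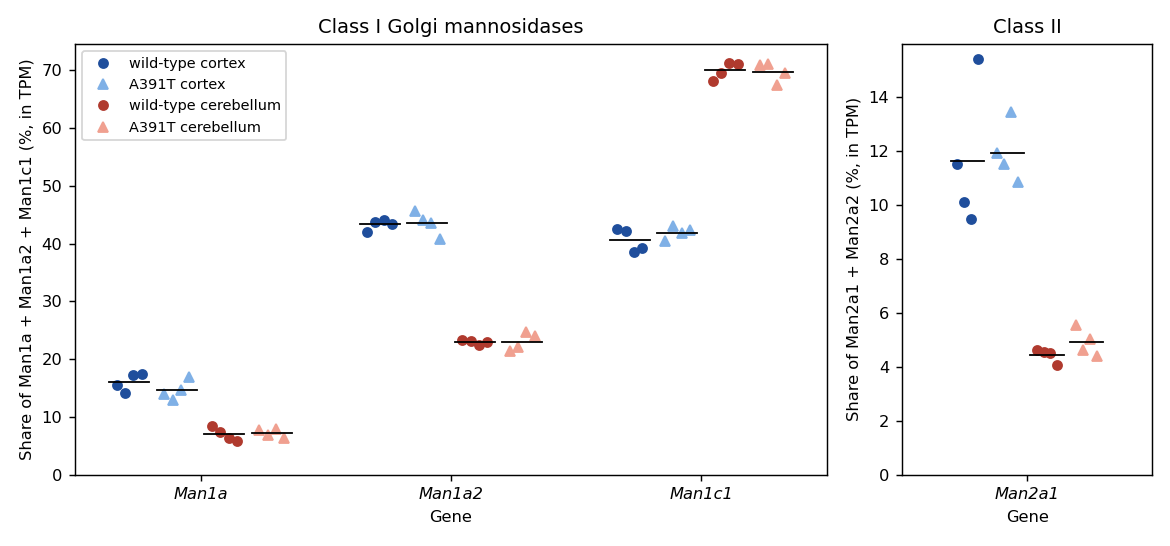
Share of each class I mannosidase gene in the summed TPM of *Man1a*, *Man1a2* and *Man1c1* (left, %), and share of *Man2a1* in the sum of *Man2a1* and *Man2a2* (right, %), with 1 point per library, 4 per group, and a bar at the group mean. *Man1c1* lies between 38.6% and 43.0% in the cortex libraries and between 67.4% and 71.2% in the cerebellum libraries, and *Man2a1* has a smaller share in every cerebellum library than in any cortex library.

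The 2 class II mannosidase genes also differed in opposite directions. *Man2a1* (ENSMUSG00000024085, chromosome 17, 64950076 to 65104450, plus strand, 22 exons), for mannosidase II, had 15.7, 17.7, 16.4 and 14.9 TPM in wild-type cortex and 9.41, 8.91, 10.2 and 9.59 TPM in wild-type cerebellum. In A391T mice it had 18.6, 18.7, 20.0 and 15.6 TPM in cortex and 8.49, 9.24, 9.41 and 9.33 TPM in cerebellum. The regions did not overlap. The change on the log2 scale was -0.92 (SE 0.07, adjusted p = 4.4e-07, edgeR) in wild-type and -1.10 (SE 0.08, adjusted p = 1.2e-06) in A391T mice. The latter alone passes 2-fold. The interaction of region and genotype, which tests the difference between these values, was -0.17 (95% interval -0.39 to 0.05, adjusted p = 0.769) and gave no call. Exons of *Man2a1* overlap a gene on the other strand over 0.928% of their bases, and reads were counted without regard to strand.

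*Man2a2* (ENSMUSG00000038886, chromosome 7, 87495300 to 87516072, minus strand, 24 exons), for mannosidase IIx, was the far more abundant of the pair. Wild-type cortex had 121, 157, 157 and 81.8 TPM and wild-type cerebellum 194, 187, 216 and 227 TPM. A391T cortex had 137, 144, 129 and 128 TPM and A391T cerebellum 144, 191, 177 and 202 TPM. The regions did not overlap within a genotype, but over all 16 libraries they did, since the cerebellum of A391T mouse 1 lay below 2 wild-type cortex libraries and within 1 TPM of the highest A391T cortex library. Cerebellum was higher in 8 of 8 mice. On TPM divided by the TMM factors, the regions also overlapped within A391T mice, with cortex up to 150.4 and cerebellum down to 143, and cerebellum was higher in 7 of 8 mice. In CPM the regions did not overlap over the 16 libraries, with cortex up to 215.8 (wild-type mouse 3) and cerebellum down to 217.2 (A391T mouse 1). The overlap thus depends on the scale. In edgeR the regional log2 fold change came to 0.52 (SE 0.17, adjusted p = 0.0153, edgeR) in wild-type mice and 0.36 (adjusted p = 0.00391) without the cortex of wild-type mouse 4, and in A391T mice it was 0.30 (SE 0.08, adjusted p = 0.00831) and 0.36 (adjusted p = 1.0e-04) without the cerebellum of A391T mouse 1. In a model of all 16 libraries the A391T difference of *Man2a2* was 0.32 with an adjusted p of 0.0585.

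As a result *Man2a1* made up 11.6% ± 2.65 of the class II sum in wild-type cortex and 4.43% ± 0.257 in wild-type cerebellum, and 11.9% ± 1.10 and 4.91% ± 0.503 in A391T mice. The highest of the cortex values, 15.4%, was that of wild-type mouse 4, and without this library the wild-type cortex mean was 10.4%. The class II sum was 145 ± 37.1 TPM in wild-type cortex and 216 ± 18.8 TPM in wild-type cerebellum, and the former was 162 ± 21.9 TPM without mouse 4. The class II sum thus followed *Man2a2*.

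Of the GlcNAc-transferases that start the antennae, *Mgat1* was lower in cerebellum and *Mgat2* gave no call. *Mgat1* (ENSMUSG00000020346, chromosome 11, 49057693 to 49076532, plus strand, 12 exons) ranged from 54.4 to 59.8 TPM in wild-type cortex and from 45.5 to 47.6 TPM in wild-type cerebellum, and from 58.8 to 61.5 and 42.1 to 55.4 TPM in A391T mice. On the log2 scale the regional change was -0.45 (SE 0.06, adjusted p = 3.8e-05, edgeR) in wild-type and -0.44 (SE 0.11, adjusted p = 0.00551) in A391T mice. The highest cerebellum library, 55.4 TPM, was that of A391T mouse 1, and it alone lay above the lowest cortex library, which it did not on TPM divided by the TMM factors. In CPM it also lay above that library, with 77.2 against 69.4 in the cortex of wild-type mouse 3. Without the cerebellum of A391T mouse 1 the A391T change was -0.56 (adjusted p = 4.0e-07).

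*Mgat2* (ENSMUSG00000043998, chromosome 12, 70285145 to 70287759, plus strand), a gene of 1 exon, ranged from 22.0 to 24.8 TPM in wild-type cortex and from 21.7 to 24.4 TPM in wild-type cerebellum. In A391T mice it ranged from 22.7 to 25.0 and from 23.1 to 28.1 TPM. In TPM it was higher in cerebellum in 4 of 8 mice, but on TPM divided by the TMM factors in 1 of 8, A391T mouse 1, and lower in the other 7. Regional log2 fold changes were -0.16 in wild-type mice (95% interval -0.32 to -0.01, adjusted p = 0.0582, edgeR) and -0.01 in A391T mice (95% interval -0.23 to 0.21, adjusted p = 0.949). The latter was -0.11 (adjusted p = 0.117) without the cerebellum of A391T mouse 1. Without the cortex library of wild-type mouse 2 the wild-type difference had an adjusted p of 0.0391, and with DESeq2 of 0.0333. The TPM of *Mgat2* per unit of *Mgat1* was 0.407 ± 0.0218 in wild-type cortex and 0.495 ± 0.0305 in wild-type cerebellum, and 0.394 ± 0.0201 and 0.534 ± 0.0306 in A391T mice. The highest cortex value was 0.423 and the lowest cerebellum value 0.456. With merged exons as gene length the ratio was 0.769 in wild-type cortex and 0.936 in wild-type cerebellum, so its size rests on the length of *Mgat2* and its direction between regions does not.

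*Mgat3* (ENSMUSG00000042428, chromosome 15, 80004151 to 80045949, plus strand, 2 exons), for the bisecting enzyme, had 172, 182, 191 and 153 TPM in wild-type cortex and 226, 230, 238 and 236 TPM in wild-type cerebellum. A391T cortex had 188, 186, 176 and 169 TPM and A391T cerebellum 191, 243, 212 and 244 TPM. The regions did not overlap over the 16 libraries, although the cerebellum of A391T mouse 1, at 191 TPM, was within 1 TPM of the highest cortex library. On TPM divided by the TMM factors they overlapped, with cortex up to 200.3 (wild-type mouse 3) and cerebellum down to 190 (A391T mouse 1), and cerebellum was higher in 7 of 8 mice. In CPM they did not overlap, with cortex up to 235.5 and cerebellum down to 258.7 (both A391T mouse 1). The change on the log2 scale was 0.26 (SE 0.06, adjusted p = 0.00366, edgeR) in wild-type and 0.20 (SE 0.07, adjusted p = 0.0300) in A391T mice. The A391T call was lost with the mouse as a replicate block (adjusted p = 0.0650). It was also lost without the cortex library of A391T mouse 2, 3 or 4 or the cerebellum library of A391T mouse 2 or 4 (adjusted p from 0.0578 to 0.0900). Without the cerebellum library of A391T mouse 1 it was 0.24 (adjusted p = 0.00287).

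*Mgat4c* (ENSMUSG00000019888, chromosome 10, 101144121 to 101854103, plus strand, 17 exons) had the largest regional fold change of the 10 genes and by far the fewest counts, from 44 to 180 per library. Wild-type cortex had 3.48, 3.14, 2.80 and 2.89 TPM and wild-type cerebellum 1.50, 0.912, 1.10 and 1.35 TPM. A391T cortex had 3.13, 2.97, 3.28 and 3.09 TPM and A391T cerebellum 1.40, 0.965, 1.68 and 1.41 TPM. Cerebellum was lower in 8 of 8 mice without overlap. In edgeR the regional log2 fold change came to -1.49 (SE 0.16, adjusted p = 8.3e-06, edgeR) in wild-type and -1.29 (SE 0.16, adjusted p = 5.1e-05) in A391T mice.

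**Figure D3:**
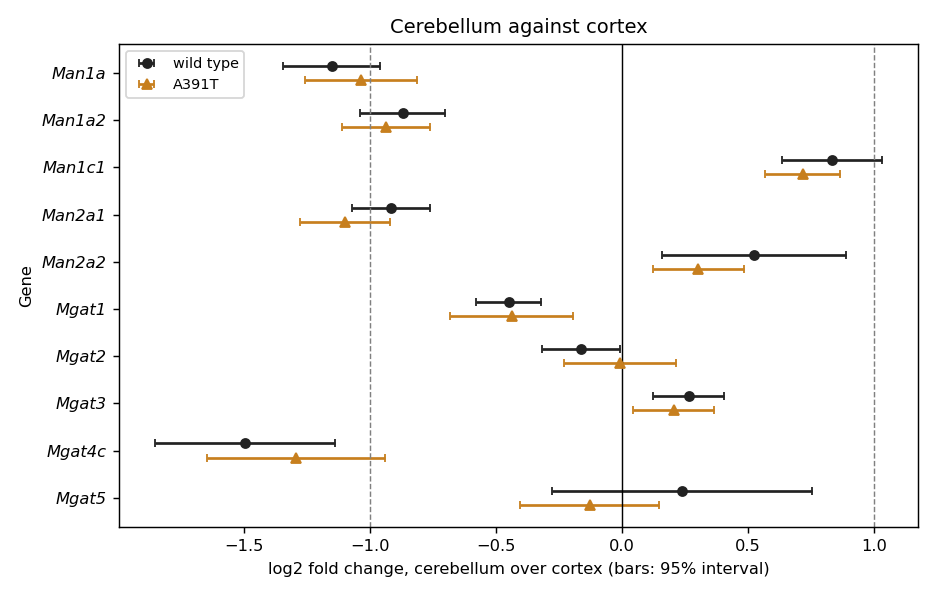
Log2 fold change of cerebellum over cortex for the 10 genes in wild-type (black circles, 4 mice) and A391T mice (orange triangles, 4 mice) from edgeR, with bars for the 95% interval and dashed lines at a 2-fold change. *Man1c1*, *Man2a2* and *Mgat3* lie to the right of 0 and *Man1a*, *Man1a2*, *Man2a1*, *Mgat1* and *Mgat4c* to the left in both genotypes, and the bars of *Mgat5* cross 0.

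*Mgat5* (ENSMUSG00000036155, chromosome 1, 129101563 to 129380281, plus strand, 18 exons), for the enzyme of the branch recognised by the lectin PHA-L, showed no regional difference past its spread. Wild-type cortex had 35.9, 51.9, 51.8 and 20.1 TPM and wild-type cerebellum 45.0, 46.2, 59.8 and 58.1 TPM. A391T cortex had 45.2, 47.1, 43.9 and 40.8 TPM and A391T cerebellum 31.0, 45.1, 44.5 and 54.4 TPM. Wild-type mouse 4 was lowest by far in cortex and A391T mouse 1 lowest in cerebellum, and the regions overlapped. On the log2 scale the regional change was 0.24 in wild-type mice (95% interval -0.28 to 0.75, adjusted p = 0.386, edgeR) and -0.13 in A391T mice (95% interval -0.40 to 0.15, adjusted p = 0.387). Without the pair of libraries that stand apart it was 0.02 (95% interval -0.27 to 0.30) and -0.02 (95% interval -0.18 to 0.14), and a 2-fold change lies outside all 4 intervals.

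*Mgat5* was, over all libraries, also the gene that varied most within a group. Its coefficient of variation in wild-type cortex, 38.1%, was the largest of the 10 genes in any group. This rests on mouse 4, without which it was 19.8%. Without both libraries that stand apart the largest was that of *Mgat4c* in A391T cerebellum, 26.8%. By the rule on all libraries the genes most like *Mgat5* were sought over the 8 cortex libraries among 15133 genes. The 5 with the highest Pearson correlation of log2 TPM were *Ptprt* (0.996), *Lmbrd2* (0.996), *Atxn1l* (0.996), *Xkr4* (0.995) and *Slc9a7* (0.995). *Man2a2* ranked 28 with 0.991, *Mgat3* had 0.922, and *Mgat2* had -0.349. Without the library of wild-type mouse 4, the correlation over the 7 libraries left was 0.983 for *Ptprt*, 0.961 for *Man2a2*, 0.771 for *Mgat3* and -0.876 for *Mgat2*. These points share library preparation and sequencing depth, and the correlations are descriptions. Within that library *Mgat5* and *Man2a2* were low together, *Mgat3* (153 TPM), *Man1c1* (35.5 TPM), *Man1a2* (39.2 TPM) and *Man2a1* (14.9 TPM) were also the lowest of the cortex libraries, and *Mgat1* and *Mgat2* lay inside the range of the others. In the cerebellum of A391T mouse 1 *Mgat5*, *Man2a2*, *Mgat3*, *Man1c1*, *Man1a2* and *Man2a1* were all lowest of the 8 cerebellum libraries in TPM and *Mgat1* and *Mgat2* were highest. *Man1a* was also lowest there, at 7.357 TPM against 7.363 TPM in A391T mouse 4. In CPM *Man2a1* was the lowest in neither of these libraries, and *Man1a* and *Man1c1* were not the lowest in the cerebellum of A391T mouse 1. Reads not uniquely aligned were 12.1% of the entries in wild-type mouse 4 cortex, the most of any library, and 8.41% in A391T mouse 1 cerebellum, the fewest. The part of these measures or of the cell type sums in the values of *Mgat5* was not tested.

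**Figure D4:**
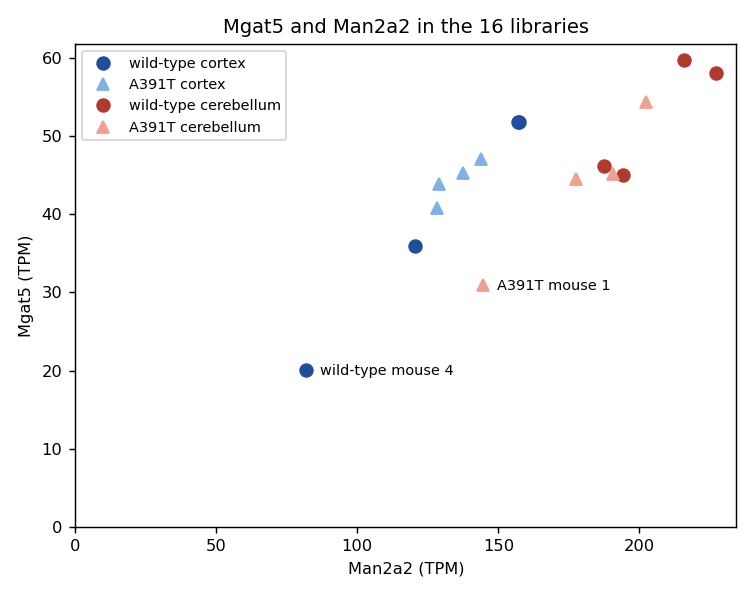
*Mgat5* against *Man2a2* in TPM for the 16 libraries, both axes from 0, with circles for wild type, triangles for A391T, blue for cortex and red for cerebellum. The cortex library of wild-type mouse 4 (81.8 and 20.1 TPM) and the cerebellum library of A391T mouse 1 (144 and 31.0 TPM) are low for both genes in their region, and the wild-type cortex points of mice 2 and 3 lie on top of each other.

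The TPM of *Mgat3* per unit of *Mgat5*, bisecting over branching, was 4.90 ± 1.90 in wild-type cortex and 4.51 ± 0.560 in wild-type cerebellum. In A391T mice it was 4.06 ± 0.104 and 5.20 ± 0.751. The cortex of wild-type mouse 4 stood at 7.61 and the other 7 cortex libraries between 3.51 and 4.80, so the spread of the first value comes from 1 library, and without it the wild-type cortex mean was 4.00. Without the cerebellum of A391T mouse 1, at 6.18, the A391T cerebellum mean was 4.88. The regions overlapped in wild-type mice (3.51 to 7.61 in cortex and 3.99 to 5.01 in cerebellum) and did not in A391T mice (3.94 to 4.16 and 4.48 to 6.18). The ratio was not tested.

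The other comparison of the design sets A391T against wild-type mice, on the same libraries as the regional one. None of the 10 genes had an adjusted p-value under 0.05 in edgeR or DESeq2 in cortex, where 0.0126% of 15815 genes did in edgeR, or in cerebellum, where 0.00% of 15668 genes did. At an unadjusted p-value under 0.05 the count over the 10 genes was also 0 in both regions, against 4.73% of all genes in cortex and 8.55% in cerebellum. In cortex the log2 fold changes, A391T over wild type, ranged from -0.14 for *Man1a* (95% interval -0.35 to 0.07, adjusted p = 1.00) to 0.15 for *Man2a1* (95% interval -0.02 to 0.32, adjusted p = 1.00). In cerebellum they ranged from -0.21 for *Mgat5* (95% interval -0.52 to 0.10, adjusted p = 0.552) to 0.22 for *Mgat4c* (95% interval -0.26 to 0.70, adjusted p = 0.653). *Mgat2* had 0.18 in cerebellum (95% interval -0.05 to 0.41) and *Man2a2* -0.15 (95% interval -0.34 to 0.03). Without the cerebellum of A391T mouse 1 these cerebellum values came to -0.11 for *Mgat5*, 0.16 for *Mgat4c*, 0.07 for *Mgat2* and -0.10 for *Man2a2*. Leaving out 1 library at a time moved *Mgat4c* between 0.10 and 0.37, and under the names of the RPKM table it was -0.14. In cortex it moved *Man1a* between -0.21 and -0.07, the latter without wild-type mouse 3, which had the highest level of *Man1a*, and *Man2a1* between 0.11 and 0.21. The intervals were widest for *Mgat5* and *Mgat4c*, and all 20 intervals lie inside a 2-fold change in either direction. *Slc39a8* itself had a log2 fold change of 0.17 in cortex (SE 0.18, adjusted p = 1.00) and -0.03 in cerebellum (SE 0.13, adjusted p = 0.925). Under the names of the RPKM table, or with the mice whose names match in both tables, 0 of 10 had an adjusted p-value under 0.05 in edgeR as well. Under the table's names, unadjusted p-values under 0.05 were found for *Man1a* in cortex (log2 fold change -0.23, unadjusted p = 0.0126, edgeR) and for *Man1a2* (-0.16, unadjusted p = 0.0329) and *Mgat5* (-0.32, unadjusted p = 0.0223) in cerebellum.

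**Figure D5:**
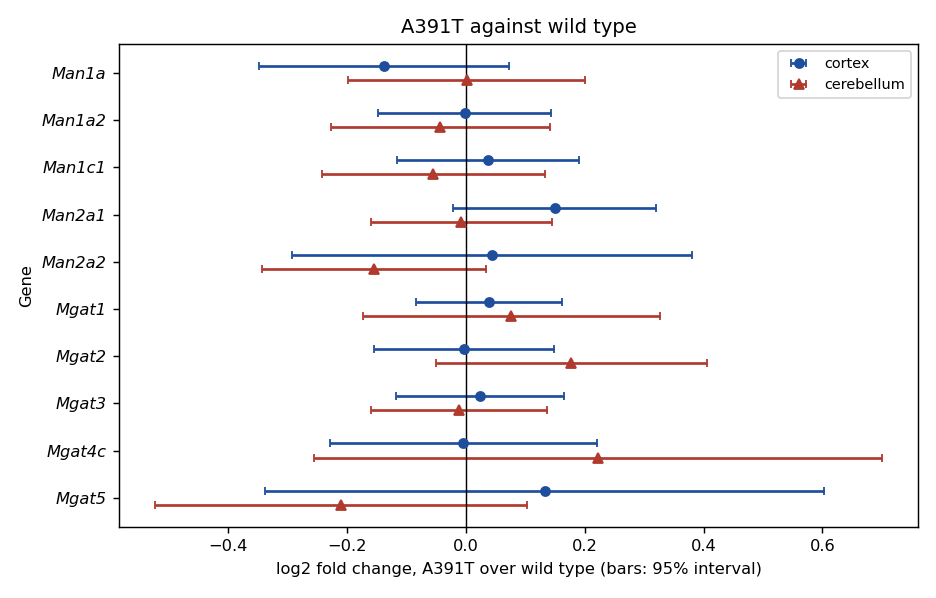
Log2 fold change of A391T over wild type for the 10 genes in cortex (blue circles) and cerebellum (red triangles), 4 mice per genotype, from edgeR, with bars for the 95% interval. Every bar crosses 0, and the bars of *Mgat4c* in cerebellum (-0.26 to 0.70) and *Mgat5* in cortex (-0.34 to 0.60) are the widest.

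The interaction of region and genotype, which asks whether the regional difference changed with the allele, gave no call among the 10 genes in edgeR or DESeq2 (0.00% of 16589 genes in edgeR). At an unadjusted p-value under 0.05 there were 0 of 10, against 4.85% of all genes. Its log2 values ranged from -0.35 for *Mgat5* (95% interval -0.97 to 0.26, adjusted p = 0.773) to 0.22 for *Mgat4c* (95% interval -0.27 to 0.70, adjusted p = 0.809). The value of *Mgat5* rests on the pair of libraries that stand apart, without which it was -0.03 (95% interval -0.38 to 0.32). It was -0.14 without the cortex of wild-type mouse 4 alone. That of *Mgat4c* was -0.22 under the names of the RPKM table and -0.0054 with the mice whose names match. Under these names 1 of 10 had an unadjusted p-value under 0.05 in edgeR, *Man1a*, at 0.33 (unadjusted p = 0.0117, adjusted p = 0.501) and 0.47 (unadjusted p = 0.0329, adjusted p = 0.540).

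The genes around these steps were taken from lists of 40 genes, of which 38 were listed in the count files and tested. Between wild-type regions 21 of the 38 had an adjusted p-value under 0.05 in edgeR, 11 higher and 10 lower in cerebellum, against 67.8% of all genes, with a median log2 fold change of 0.08. Past both criteria were 4 of 38, each lower in cerebellum, against 24.7% of all genes. They were *St6gal2*, an α2,6-sialyltransferase (log2 fold change -4.17), *Mgat5b*, a relative of *Mgat5* that branches O-mannose glycans (-1.68), *B4galt2*, a galactosyltransferase (-1.60), and *Gfpt2*, which makes glucosamine phosphate for the UDP-GlcNAc supply (-1.45). By list, beside 34.7% of all genes higher and 33.1% lower, of 10 genes of trimming in the endoplasmic reticulum 3 were higher and 1 lower, and of 4 catabolic α-mannosidase genes 2 were higher and 1 lower. Of 12 genes of extension and capping 4 were higher and 4 lower, and of 6 genes of UDP-GlcNAc supply and import 2 were higher and 2 lower. Of 3 genes of Golgi manganese and its import, *Slc39a8* among them, 1 was lower, *Atp2c1*, a Golgi calcium and manganese pump (log2 fold change -0.26, adjusted p = 5.2e-04, edgeR). The other GlcNAc-transferase genes *Mgat4a* and *Mgat4b* had log2 fold changes of 0.02 and 0.10 and did not pass. In A391T mice 19 of 38 had an adjusted p-value under 0.05, against 62.8% of all genes, and 4 passed both criteria, against 24.7%. None of the 3 Golgi manganese genes, *Atp2c1* among them, was called between A391T regions, with log2 fold changes from -0.18 to -0.02. No gene of these lists passed in either genotype comparison or in the interaction.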

How the data were processed

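RNA of cortex and cerebellum of 4 wild-type and 4 A391T mice was measured as 16 libraries. The authors purified RNA, made polyA-selected directional libraries, aligned with STAR to mm9 and used HTSeq, with no regard to strand, to count over Ensembl genes (versions not given in the sources used here). The deposited count values are not normalized. The deposited RPKM values, computed by the authors, were used only for gene lengths, gene names and the check of library names: 8 of 16 columns carry another name than the count file they are proportional to. Groups follow the sample labels. Entries on no gene (10.2% to 13.2%), ambiguous (2.20% to 2.75%) or not uniquely aligned (8.41% to 12.1%) were left out.

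Tests on counts used the quasi-likelihood method of edgeR 4.0.16 under R 4.3.3 (TMM, filterByExpr, Benjamini-Hochberg adjustment over all genes tested), within each genotype for region, within each region for genotype, and over 16 libraries for the interaction. The criteria were a 2-fold change and an adjusted p-value under 0.05. The standard error is the log2 fold change divided by the square root of F, and the 95% interval uses the t distribution with the degrees of freedom of the fit. TPM was computed from counts and deposited gene lengths, with pandas 2.3.3 in Python 3.11.15. Likeness was measured on log2(TPM + 0.1) over genes of at least 1 TPM. The fit was tested on simulated data. The members and lists were chosen with earlier results of these data known. Named were all members, *Slc39a8*, listed pathway genes past both criteria or passing in a genotype comparison, and the 5 genes most like the member with the largest coefficient of variation. *Mgat4a*, *Mgat4b*, *Atp2c1* and the sums of marker lists were added as context after their values were seen.

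Alternatives were library totals, DESeq2 1.42.0, 2 other filters, RLE size factors, the RPKM table's names, mice whose names match, the mouse as a replicate block, 1 model of all libraries, each library left out, and, chosen after seeing the data, the pair of libraries that stand apart left out and merged exon lengths of NCBIM37. The titles number each mouse and the paper states that both regions came from the same animals, so mouse numbers pair the libraries. Across genes, the deviations of cortex and cerebellum of 1 mouse correlated from -0.0909 to 0.119 in wild-type and from -0.0994 to 0.0225 in A391T mice (4 pairs each), against -0.167 to 0.152 between different mice. Each library is 1 region of 1 mouse, so p-values measure the spread between libraries. Mouse, dissection and library preparation cannot be told apart in that spread, and depth sets counting error only.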

Additional observations from a re-analysis of the deposited data

Results flagged for a closer look

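The level of *Man1a* in the cortex of wild-type mouse 3, 19.0 TPM, lay far above the other 3 wild-type cortex libraries, which had 15.4 to 15.8 TPM. The gap was 0.885 of the range of the group, above Dixon's critical value for 4 samples. It was the 1 value to exceed it among 64 groups of 4 values, which is under the share of about 1 in 20 that chance gives.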

How the results depend on the processing

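Over the alternatives, the wild-type count past both criteria was 2 to 3 and that with an adjusted p under 0.05 6 to 9. Leaving out 1 library at a time gave 2 to 2 and 8 to 9 in wild-type mice, 2 to 3 and 7 to 8 in A391T mice, 0 to 0 for both genotype comparisons and the interaction, 4 to 4 other pathway genes, and 35 to 40 of the 40 places in the order of levels. In A391T mice, library totals in place of TMM left 1 gene past both criteria (*Mgat4c*), and with only the mice whose names match, 5 had an adjusted p under 0.05. Under the names of the RPKM table, *Man1a2* passed both criteria there and *Man1a* did not. Of the 40 places in the order, 20 stayed with CPM and 25 with merged exon lengths. Library totals moved the median log2 fold change of all genes to 0.14 in wild-type and 0.16 in A391T mice.

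Directions that turned were all of values without a call. *Mgat2* between A391T regions was 0.12 with library totals, 0.11 with matching names, 0.00946 in 1 model of all libraries, 0.00050 without a filter, and from -0.107 to 0.0446 with 1 library left out. *Mgat5* between A391T regions was 0.0052 with library totals. *Mgat5* between genotypes in cortex was -0.0785 without the pair of libraries that stand apart, and ranged from -0.0785 to 0.278 with 1 library left out, the cortex of wild-type mouse 4 deciding its sign. *Mgat4c* between genotypes in cerebellum was -0.14 under the names of the RPKM table, and its interaction was -0.22 under those names and -0.0054 with matching names. The interaction of *Man2a2* was 0.0115 without the pair. The cause was not tested.

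With only the mice whose names match, 2 per genotype, *Man2a2* and *Mgat3* lost their calls in wild-type mice with larger changes (0.73 and 0.30, adjusted p 0.0827 and 0.103), and in A391T mice *Man2a2*, *Mgat3* and *Mgat1* did with smaller ones (0.19, 0.15 and -0.31, adjusted p 0.317, 0.377 and 0.204). The mouse as a replicate block, the paired analysis, took the A391T call of *Mgat3* (log2 fold change 0.20, adjusted p = 0.0650) and changed no other call of the 10 genes. Depth limits *Mgat4c* most, with 44 counts in its lowest library.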
